A study of Mus musculus with 8 samples.

Results

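The claudins described here are 10 genes chosen by name, Cldn1, Cldn2, Cldn3, Cldn4, Cldn7, Cldn8, Cldn10, Cldn12, Cldn16 and Cldn19. They were read on every probe that the platform annotation gives to them, each probe on its own. The list held 15 of the 25697 probes on the array, 4 of them for Cldn10 and 2 each for Cldn8 and Cldn19, among 16593 named genes. Of these, 13 probes of 9 genes passed the detection filter, which asked for a signal above background on at least 4 of 8 arrays, and both Cldn8 probes did not. The list was drawn up with the genotype results of these mice known, those of Cldn10 and Cldn16 in particular, so the genotype differences of its probes are given as a description, without a test.

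Kidney RNA was compared between 4 homozygous mutant and 4 wild-type male mice, all aged 29 weeks and all of the inbred strain C3HeB/FeJ. The mutant mice carried the point mutation N294K on both copies of Scube3, a gene for a secreted and cell surface glycoprotein, in every cell of the body. The line came from chemical (ENU) mutagenesis, and the controls carried no mutant copy. Total RNA of kidney samples was hybridised to Illumina Mouse Ref8 v2.0 BeadChips, with 1 array per mouse. The values are log2 normalized intensities, and every difference is mutant minus wild type.

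Claudins are membrane proteins that join neighbouring epithelial cells at the tight junction. Each forms either a barrier or a pore that selects ions by charge and size, so the set of claudins in a tubule segment fixes what passes between its cells. Claudin-2 is a cation and water pore of the proximal tubule, while claudin-16 and claudin-19 act together in the thick ascending limb, where calcium and magnesium are reabsorbed between cells. Claudin-3, claudin-4, claudin-7 and claudin-8 belong mainly to the distal nephron and collecting duct, and claudin-1 to the parietal cells of Bowman's capsule. Cldn10 is read from alternative first exons into an anion-selective form, Cldn10a, and a cation-selective form, Cldn10b, and the second is the main form of the thick ascending limb.

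The bases before both annotated starts of Cldn10 and before the start of Cldn16 are shown, because the results turn on these genes. They are the 250 bases before each start in RefSeq, in build GRCm38.p6, read 5′ to 3′, with matches on either strand in capitals. The letters searched were GGGCGG, the GC box bound by Sp family factors, and GTTAAT, which is only a part of the longer site bound by hepatocyte nuclear factor 1.
Cldn10, first start, chr14:118787621-118787870 (+): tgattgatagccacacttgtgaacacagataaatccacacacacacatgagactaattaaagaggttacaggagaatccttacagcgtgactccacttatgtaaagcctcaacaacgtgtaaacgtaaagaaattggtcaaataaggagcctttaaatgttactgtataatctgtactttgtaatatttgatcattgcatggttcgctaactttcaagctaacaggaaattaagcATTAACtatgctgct
Cldn10, second start, chr14:118854700-118854949 (+): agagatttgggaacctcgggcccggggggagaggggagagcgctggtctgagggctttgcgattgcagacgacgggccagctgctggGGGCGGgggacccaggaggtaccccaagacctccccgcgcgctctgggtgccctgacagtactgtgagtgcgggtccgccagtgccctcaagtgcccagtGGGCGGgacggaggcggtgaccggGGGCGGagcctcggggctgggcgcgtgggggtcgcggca
Cldn16, chr16:26462885-26463134 (+): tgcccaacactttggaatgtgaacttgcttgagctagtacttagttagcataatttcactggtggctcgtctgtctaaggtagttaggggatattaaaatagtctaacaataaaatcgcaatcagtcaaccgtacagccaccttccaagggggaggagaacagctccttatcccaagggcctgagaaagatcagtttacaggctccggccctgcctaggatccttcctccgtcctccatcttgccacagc
The Cldn10 windows begin 67079 bases apart and differ in base composition. The first had 36.0% G and C with 4 CpG pairs, 1 match to GTTAAT, on the minus strand, and no GC box. The second had 72.4% G and C with 22 CpG pairs, 3 GC boxes and no match to GTTAAT. The Cldn16 window had 48.0% G and C, 5 CpG pairs and neither sequence. The median window held 52.4% G and C among 32851 windows of the same length before mouse gene starts. Of these windows 32.7% held a GC box and 6.43% held GTTAAT. Of the 10 claudins 9 had at least 1 window, 14 in all, and only that of Cldn2 held the core promoter sequence TATAAA, found in 12.4% of all windows. Which start gives rise to the RNA read by which Cldn10 probe was not analysed here.

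The arrays were similar in brightness and in the number of probes above background. The median scanned intensity lay between 127 and 139 and 12602 to 13127 probes were above background per array, with Spearman correlations of 0.939 to 0.952 between arrays. Across all 12914 probes kept, 2167 (16.8%) passed an adjusted p of 0.05 in limma, 7.86% higher and 8.92% lower in mutant mice. With arrays scaled to a common median instead of quantiles, the split was 241 higher and 1588 lower, against 1015 and 1152. The wild-type arrays are listed before the mutant arrays, so an effect of handling in that order and of genotype cannot be told apart. The 2 Scube3 probes gave differences of 0.12 (adjusted p = 0.625) and 0.16 (adjusted p = 0.249), which does not check the labels, since a point mutation need not alter the amount of RNA.

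Among the 13 claudin probes, 3 (23.1%) were past the threshold against 16.8% of all probes, and this count is read no further because the list was made knowing it. The 3 were Cldn3, higher, and Cldn16 and 1 of the 4 Cldn10 probes, lower in mutant mice. The wild-type and mutant ranges were separate for 2 claudin probes, Cldn3 and the same Cldn10 probe, against 23.8% of all probes. The 13 differences ranged from -1.84 to 0.26 with a median of -0.08, against a median of 0.01 over all probes kept. In bulk kidney tissue, fewer cells of a segment and less RNA per cell cannot be told apart in any of these values.

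**Figure D1:**
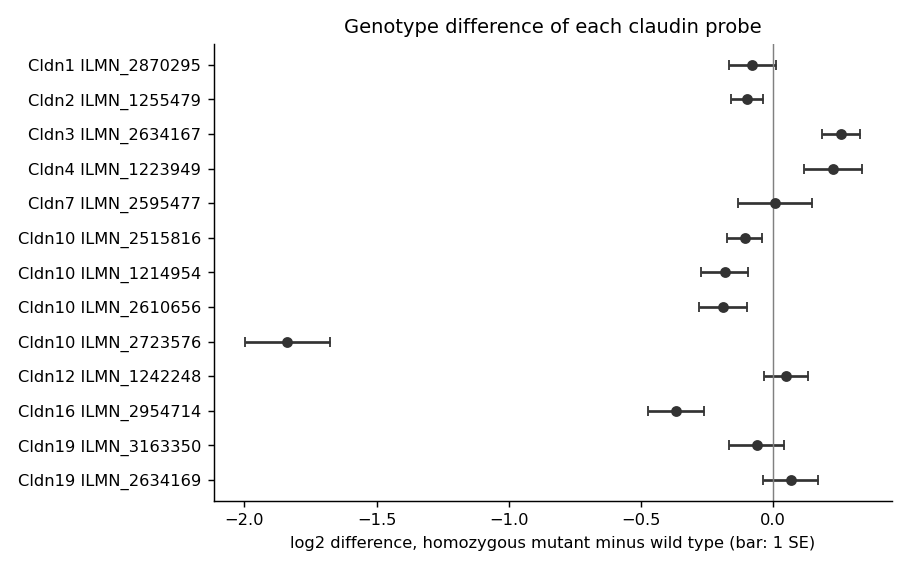
Log2 difference between homozygous mutant and wild-type kidneys for each of the 13 claudin probes above background, with the SE of the limma fit as the bar (4 mice per genotype). The Cldn10 probe ILMN_2723576 stands at -1.84, while the other 12 probes lie between -0.37 and 0.26.

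Cldn10 gave the lowest value of the list on 1 probe and small differences on the other 3. On ILMN_2723576 the 4 wild-type mice read 9.37, 9.25, 9.01 and 8.77, and the 4 mutant mice 7.69, 7.05, 7.19 and 7.13. All mutant mice lay below all wild-type mice, and mutant mouse 1 was the highest of its group. The means were 9.10 ± 0.27 and 7.26 ± 0.29 (SD, n = 4 each), a difference of -1.84 (SE 0.16), which was the lowest of the 12914 probes kept. Before any normalization the same probe read 692 ± 113 in wild-type and 249 ± 30.0 in mutant mice (SD, n = 4 each), a ratio of 0.360 that includes the array background. With the normalization of the study the difference was -1.95.

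The other 3 Cldn10 probes were lower in mutant mice by 0.11 to 0.19, with overlapping genotypes. ILMN_2515816 read 13.39, 13.17, 13.20 and 13.21 in wild-type and 13.17, 13.14, 13.07 and 13.16 in mutant mice, a difference of -0.11 (SE 0.07). ILMN_1214954 read 11.60, 11.41, 11.44 and 11.21 against 11.31, 11.27, 11.08 and 11.25, a difference of -0.18 (SE 0.09). ILMN_2610656 read 11.06, 10.75, 10.75 and 10.64 against 10.65, 10.60, 10.55 and 10.65, a difference of -0.19 (SE 0.09). Without wild-type mouse 1 these differences shrank to -0.06, -0.12 and -0.10. On each of these 3 probes wild-type mouse 1 was the highest of all 8 mice and mutant mouse 3 the lowest.

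The annotation did not divide the Cldn10 probes by their difference. ILMN_2515816 and ILMN_2723576 are assigned to the same RefSeq transcript, yet their differences were -0.11 and -1.84, and ILMN_1214954 and ILMN_2610656 share the other transcript and differed by nearly the same amount. Within each mouse, the first pair could be set against each other on the same array. ILMN_2515816 exceeded ILMN_2723576 by 3.92 to 4.44 in wild-type mice and by 5.49 to 6.09 in mutant mice on the log2 scale, with no overlap. The ratio of their scanned intensities was 13.2 to 16.7 in wild-type and 31.3 to 38.4 in mutant mice. The probes of the second pair differed from each other by 0.53 to 0.69 in wild-type and 0.54 to 0.67 in mutant mice, so their ratio overlapped between genotypes.

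**Figure D2:**
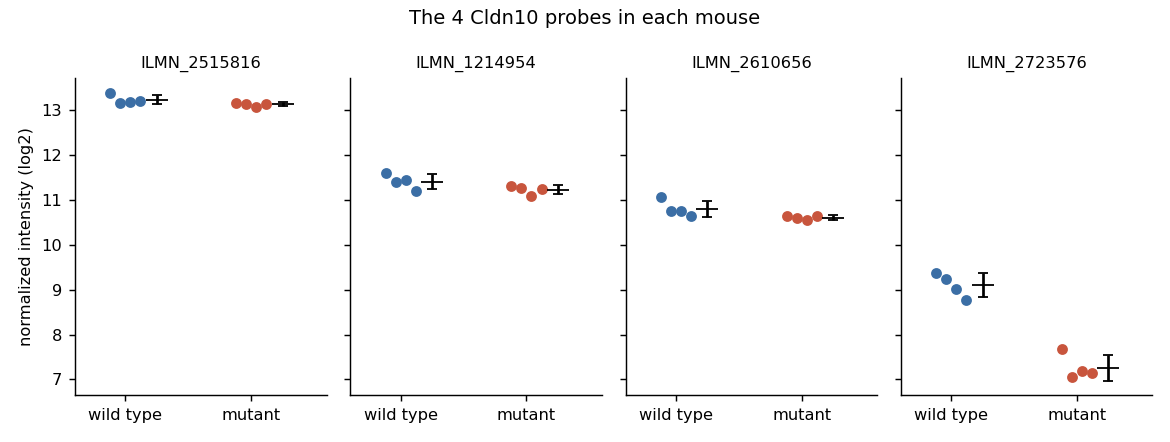
Log2 normalized intensity of the 4 Cldn10 probes in each mouse (points), with the mean and SD of 4 mice per genotype beside them. On ILMN_2723576 the mutant mice read 7.05 to 7.69 and the wild-type mice 8.77 to 9.37, while the genotypes overlap on the other 3 probes.

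The spread of 1.73 between the highest and the lowest difference of the Cldn10 probes was the widest of the 2324 genes with at least 2 probes kept. The median gene had a spread of 0.16, the 95th percentile was 0.52, and the next gene, Mep1b, had 1.27. Cldn10 was also first among the 135 genes with at least 4 probes kept. The 2 Cldn19 probes, by contrast, were 0.13 apart. Probes of 1 gene falling on both sides of the threshold were common, in 666 (28.7%) of the multi-probe genes, so it was the size of the Cldn10 spread that stood apart. The Cldn10 and Cldn16 calls were known when the list was made, and the spread contains the same difference, so its rank is a description as well.

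**Figure D3:**
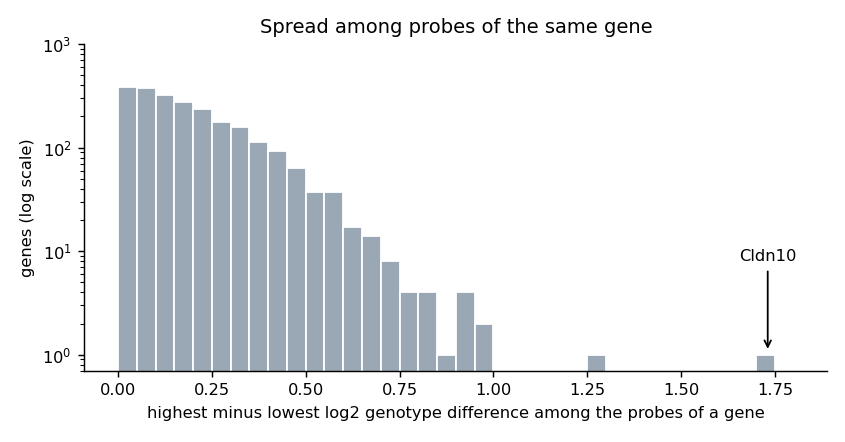
Number of genes (log scale) by the spread of the log2 genotype difference among the probes of the same gene, for 2324 genes with 2 or more probes kept. The median is 0.16, and Cldn10, marked by the arrow, has the widest spread at 1.73.

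Of the pair that acts together in the thick ascending limb, Cldn16 was lower in mutant mice and Cldn19 was not separated. Cldn16 read 8.77, 8.64, 8.51 and 8.47 in wild-type and 8.50, 8.06, 8.25 and 8.10 in mutant mice, a difference of -0.37 (SE 0.11). The genotypes overlapped through mutant mouse 1, which lay above wild-type mouse 4. Without that mouse the difference was -0.46, and the call at the threshold was lost in each of the other 7 fits that left out 1 mouse. The Cldn19 probe ILMN_3163350 had means of 6.86 ± 0.11 and 6.80 ± 0.21, and ILMN_2634169 had 5.70 ± 0.08 and 5.77 ± 0.22 (SD, n = 4 each). Their differences were -0.06 (SE 0.10) and 0.07 (SE 0.10), both smaller than the spread between mice. On ILMN_2634169 mutant mouse 1 read 6.10 and the other 3 mutant mice 5.64 to 5.68.

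Mutant mouse 1 was thus the highest mutant mouse on the Cldn10 probe ILMN_2723576, on Cldn16 and on both Cldn19 probes. Wild-type mouse 1 was the highest wild-type mouse on all of these but Cldn19 ILMN_3163350. This co-variation was measured after taking each genotype's mean out, which leaves the genotype difference unused. Over the 8 arrays, the deviations of Cldn10 ILMN_2723576 and of Cldn16 had a Pearson r of 0.948 and a Spearman rho of 0.976. Among the 12913 other probes Cldn16 was the 7th most like ILMN_2723576, and ILMN_2723576 the 5th most like Cldn16. The r was 0.947 in the 4 wild-type and 0.966 in the 4 mutant mice, and 0.80 over the 6 mice left after taking out the first mouse of each genotype, the 2 farthest from the median. These correlations rest on 8 arrays whose probes share a library and a normalization, and they are given without a p.

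**Figure D4:**
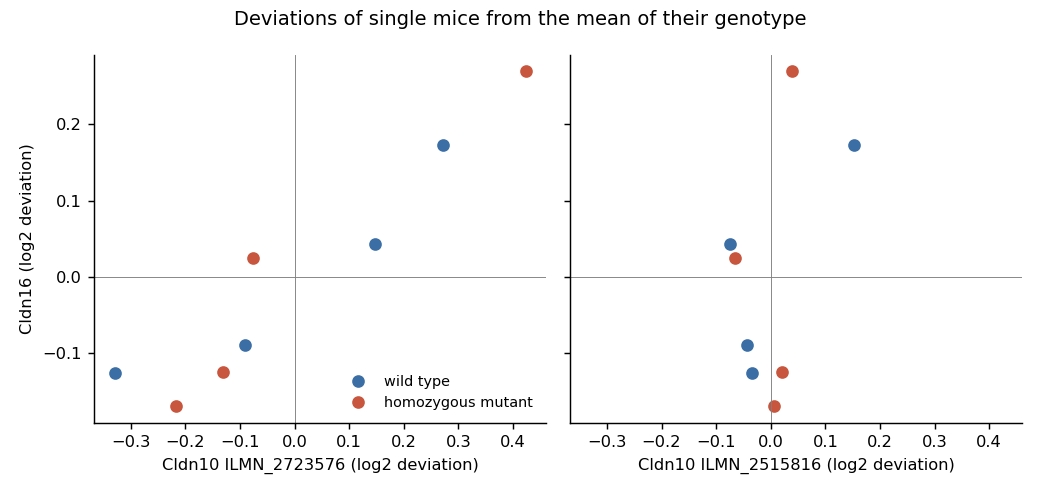
Log2 deviation of each mouse from the mean of its genotype, for Cldn16 (vertical axis) against the Cldn10 probes ILMN_2723576 (left) and ILMN_2515816 (right), 4 mice per genotype. The 8 points follow a line on the left (r = 0.948) and scatter on the right (r = 0.449).

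The other 3 Cldn10 probes followed Cldn16 less closely, with r of 0.449, 0.480 and 0.544, and Cldn16 ranked between 1607 and 2236 among the other probes by its likeness to them. They followed each other with r of 0.745 to 0.903, and ILMN_2723576 with r of 0.473 to 0.678. The Cldn19 probes gave r of 0.801 (ILMN_2634169) and 0.670 (ILMN_3163350) with ILMN_2723576, and 0.795 and 0.480 with Cldn16. The higher r of each pair came from the probe on which mutant mouse 1 stood far from the other mutant mice. Cldn12, whose product is found in the proximal tubule, ran opposite to all 4 Cldn10 probes, with r from -0.888 to -0.690. The probes of other genes most like each Cldn10 probe were different for each: Raver1 (r = 0.976), Smim41 (0.970) and Mrpl14 (0.969) for ILMN_2723576, and Cx3cr1 (0.986), Tmem127 (0.976) and Afmid (0.963) for ILMN_2515816. For ILMN_1214954 they were Fam3a (0.989), Pdzd11 (0.987) and Chpt1 (0.986), and for ILMN_2610656 Polr1d (0.972), Dnajc2 (0.966) and Pfdn4 (0.965). Of these 12 genes only Chpt1, an enzyme of phosphatidylcholine synthesis, passed the genotype threshold, with a difference of -0.52 (SE 0.09, adjusted p = 0.00828).

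Of 6 genes of the thick ascending limb tested, 4 were lower and 1 higher in mutant mice, with a median of -0.60, while 16.3% of all 9000 genes passed, 8.43% higher and 7.88% lower. The list was made knowing that Slc12a1 and Umod were lower, so this count is not independent evidence and is read no further. Slc12a1, the furosemide-sensitive sodium-potassium-chloride cotransporter (-1.14, SE 0.13), and Umod, which encodes uromodulin (-0.54, SE 0.09), are given as a description, without a test. The other lower ones were Egf (-0.65, SE 0.07, adjusted p = 0.00226) and the prostaglandin receptor gene Ptger3 (-0.67, SE 0.11, adjusted p = 0.00665). The Ptger3 difference was -0.28 without background correction. Bsnd, the chloride channel subunit barttin, was higher (0.21, SE 0.06, adjusted p = 0.0492), a call lost in all 8 fits that left out 1 mouse and with median scaling, and the potassium channel gene Kcnj1 gave 0.23 (SE 0.10, adjusted p = 0.154). The summed linear intensity of the 6 genes was 16570 to 19410 in wild-type and 10560 to 13030 in mutant mice. The part of these genes in the Cldn10 and Cldn16 differences was not tested.

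Within genotypes, ILMN_2723576 varied with Umod at r = 0.918, with Slc12a1 at r = 0.833, with Egf at r = 0.730 and with Ptger3 at r = 0.599. Its r was 0.04 with Kcnj1 and -0.18 with Bsnd, the 2 limb genes that were not lower in mutant mice. Cldn16 gave the same order of relation, from 0.932 with Umod to -0.33 with Bsnd. Without the first mouse of each genotype, the r with Umod fell to 0.695 for ILMN_2723576 and 0.716 for Cldn16. On the dimmer Umod probe, these values without the 2 mice were 0.856 and 0.644. The median r over the 6 genes was 0.664 for ILMN_2723576 and 0.780 for Cldn16, against 0.310 to 0.393 for the other 3 Cldn10 probes. With 5 proximal tubule genes the median r was -0.08 for ILMN_2723576, -0.185 for Cldn16 and between 0.176 and 0.362 for the other 3 Cldn10 probes. These 5 went both ways, and Lrp2 gave r of -0.661 to -0.510 with those 3 probes. Cldn2, of the proximal tubule, had a median r of 0.416 with the 6 limb genes and -0.199 with the 5 proximal tubule genes. The Cldn19 probes had a median r of 0.196 (ILMN_3163350) and 0.528 (ILMN_2634169) with the limb genes. These medians thus did not follow the segment of every claudin.

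Claudins of the proximal tubule and of Bowman's capsule had differences close to 0. Cldn2 read 12.61, 12.55, 12.49 and 12.59 in wild-type and 12.55, 12.41, 12.41 and 12.47 in mutant mice, a difference of -0.10 (SE 0.06). The mutant values lay on the lower side, and 1 of them reached the wild-type range. Cldn12 gave 0.05 (SE 0.08) and Cldn1 gave -0.08 (SE 0.09), both with overlapping genotypes. Of 5 proximal tubule genes tested 2 passed, against 16.3% of all genes. The organic anion transporter gene Slc22a7 was higher (0.80, SE 0.15, adjusted p = 0.0113) and Lrp2, the endocytic receptor megalin, lower (-0.47, SE 0.12, adjusted p = 0.0272). Without background correction these differences were 0.56 and -0.19, and the Lrp2 call was lost in 3 of 8 fits that left out 1 mouse. The phosphate cotransporter gene Slc34a1 gave 0.01 (adjusted p = 0.896).

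Among the claudins of the distal nephron, Cldn3 was the only one whose genotypes were separate. It read 6.33, 6.60, 6.38 and 6.41 in wild-type and 6.62, 6.66, 6.71 and 6.77 in mutant mice, a difference of 0.26 (SE 0.07). All mutant mice were above all wild-type mice, with wild-type mouse 2 close below mutant mouse 1. The scanned intensities, 198 ± 13.2 and 200 ± 10.3 (SD, n = 4 each), had a ratio of 1.01, and without background correction the log2 difference was 0.12. The call was lost in that fit and in 7 of the 8 fits that left out 1 mouse, all but the one without wild-type mouse 2. Cldn4, the neighbour of Cldn3 on chromosome 5, read 8.14, 8.36, 8.58 and 8.31 against 8.47, 8.64, 8.78 and 8.41, a difference of 0.23 (SE 0.11) with overlapping ranges. Cldn7 had means of 5.96 ± 0.21 and 5.97 ± 0.26 (SD, n = 4 each), a difference of 0.01 (SE 0.14). Both Cldn8 probes were above background on 0 of 8 arrays, so that only an upper bound is known for this collecting duct claudin in either genotype.

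**Figure D5:**
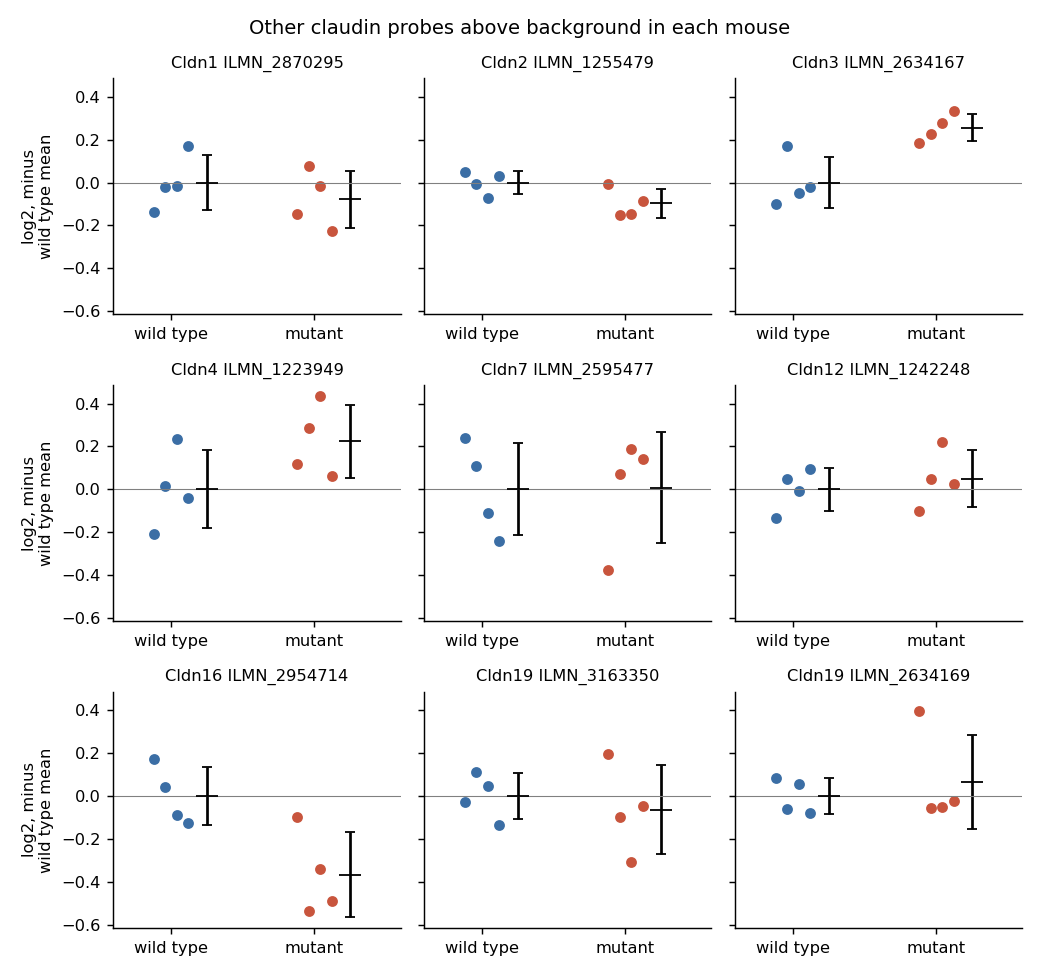
Log2 intensity of the 9 other claudin probes above background in each mouse, as the difference from the wild-type mean of the same probe, with the mean and SD of 4 mice per genotype. Cldn3 is the only panel in which the genotypes do not overlap, and in Cldn16 only mutant mouse 1 reaches the wild-type range.

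In the distal convoluted tubule Slc12a3, the thiazide-sensitive cotransporter (0.30, SE 0.07, adjusted p = 0.0234), and Pvalb, parvalbumin (0.30, SE 0.08, adjusted p = 0.0357), were higher, 2 of 4 genes tested. Leaving out 1 mouse lost the Slc12a3 call in 4 of 8 fits and the Pvalb call in 6, and median scaling lost both. Of 6 principal cell genes, Scnn1b (0.31, SE 0.08, adjusted p = 0.0288) and Fxyd4 (0.28, SE 0.06, adjusted p = 0.0169) were higher and Hsd11b2 (-0.41, SE 0.10, adjusted p = 0.0241) lower, and leaving out 1 mouse lost the Scnn1b call in 4 and the Hsd11b2 call in 5 of 8 fits. Median scaling lost the calls of Scnn1b and Fxyd4. None of 4 intercalated cell genes passed the threshold in limma, nor did any at an unadjusted p of 0.05. Of 5 urothelium genes tested, the uroplakin genes Upk1a (0.54), Upk1b (0.90), Upk2 (0.67) and Upk3a (0.77) were higher, with adjusted p of 0.0127, 0.0082, 0.0106 and 0.00993. On these probes the calls held in every setting run, but the differences were 0.17, 0.30, 0.30 and 0.28 without background correction and 0.83, 1.38, 0.82 and 1.09 with the deposited intensities. The second, dimmer Upk1a probe gave 0.11 (adjusted p = 0.46) with overlapping genotypes. Upk3b, the remaining gene of the 5, gave 0.02 (adjusted p = 0.905) on its brightest probe. All these counts stand beside 16.3% of all genes past the threshold. The summed level of the 5 was 237 to 285 in wild-type and 339 to 447 in mutant mice, and the basal and terminal urothelial markers Krt5 and Krt20 were not above background. Cldn3 and Cldn4 are also made by urothelium, and the part of these cells in their values was not tested. Wt1, the only podocyte gene tested, was lower (-0.46, adjusted p = 0.0179, and -0.24 without background correction). Of 4 endothelial genes only Cdh5 passed (-0.37, adjusted p = 0.0211). Its call was lost in 2 of 8 fits that left out 1 mouse, and its difference was -0.13 without background correction. Pecam1 gave -0.37 (adjusted p = 0.0538) on its brightest probe and 0.19 (adjusted p = 0.224) on the dimmer one. Tek gave -0.22 (adjusted p = 0.223) and Kdr 0.09 (adjusted p = 0.554), and 5 of 6 markers of other organs were not above background. The remaining marker, the hemoglobin gene Hba-a1, read 11.33 to 12.91 in wild-type and 11.38 to 12.84 in mutant mice, a difference of -0.27 (SE 0.41).

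The other claudins above background gave differences from -0.28 to 0.31, while Cldn3 gave 0.26. Of 13 further genes with 16 probes, 6 probes of 5 genes were above background, and 0 of the 6 were past the threshold in limma, against 16.8% of all probes, and 3 had an unadjusted p under 0.05, against 34.0%. These 3 were Cldn11 (0.31, SE 0.12, adjusted p = 0.107), Cldn6 (0.25, SE 0.10, adjusted p = 0.105) and the Cldn15 probe ILMN_2674906 (-0.28, SE 0.12, adjusted p = 0.128). The second Cldn15 probe gave 0.01, Cldn9 gave 0.12 and Cldn18 gave 0.14. The 6 probes had a median of 0.13.

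Of 34 genes of tight junctions, cell adhesion and claudin regulation tested, 1 was higher and 2 were lower in mutant mice, with a median of -0.02, against 16.3% of all genes past the threshold. An unadjusted p under 0.05 was reached by 11 of the 34, against 34.0% of all genes. Without wild-type mouse 1 none of the 34 passed, and without mutant mouse 4 the count was 1. Among the scaffold proteins Prkcz, the atypical protein kinase C of the polarity complex, was higher (0.29, SE 0.08, adjusted p = 0.0394), a call lost in 6 of 8 fits that left out 1 mouse, and Mpdz, which holds claudins by its PDZ domains, was lower (-0.50, SE 0.12, adjusted p = 0.0223, and -0.21 without background correction). The plakoglobin gene Jup, of adherens junctions and desmosomes, is the third gene in the count. It was above background in 4 wild-type mice and 1 mutant mouse, so it was kept through the wild-type group alone, and its difference (-0.42) is a description. That difference was -0.21 with the deposited intensities and -0.12 without background correction, both short of the threshold. None of the 9 other tight junction membrane proteins tested and none of the 9 claudin regulators passed the threshold in limma on its brightest probe, with 6 and 1 of them at an unadjusted p under 0.05. On all 3 probes of Vdr, the vitamin D receptor, the mutant mice were above the wild-type mice, and 1 dimmer probe passed (0.20, SE 0.06, adjusted p = 0.0463). A dimmer probe also passed for the adhesion genes Ctnnb1 (-0.30, adjusted p = 0.0228) and Pkp2 (-0.34, adjusted p = 0.021), with separate genotypes. The brightest probes of Ctnnb1 and Pkp2, used in the count, gave 0.03 and -0.05.

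The test named in the study's methods, SAM on its own normalized intensities with a fold above 1.6, was run as a second fit. It passed 234 of the 25697 probes (0.911%), 68 higher and 166 lower in mutant mice. Among the 15 claudin probes it passed only Cldn10 ILMN_2723576. The study had reported Cldn10 as lower from the same test on these mice. That outcome was therefore known beforehand and is not independent evidence. Before the fold was required, SAM called 2387 of the 25697 probes and 3 of the 15 claudin probes. Of these 3, Cldn3 and Cldn16 did not reach the fold. With values floored at 1 instead of 16, SAM reached no threshold under its FDR limit and passed 0 probes. On the quantile-normalized values it passed 78 probes (15 higher, 63 lower), among them the same Cldn10 probe. Before the fold was required it called 2343 probes there, with Cldn3 but not Cldn16 among them.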

How the data were processed

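The authors deposited a scanned intensity of each probe on each array, neither background-subtracted nor normalized, with its detection p-value from GenomeStudio 2011.1. A further deposited table holds the authors' linear intensity after cubic spline normalization. Here the scanned values went through neqc (limma 3.58.1, R 4.3.3), which subtracts background by normexp from the detection p-values, adds an offset of 16, equalizes quantiles and takes log2. Detection at p under 0.05 was required on 4 or more of 8 arrays, which 12914 of 25697 probes (50.3%) met. lmFit and eBayes of limma were fitted with genotype alone, with Benjamini-Hochberg adjustment over these probes. Groups came from the sample labels, and each array is a separate mouse. Precision is limited by 4 mice per genotype, with a median SE of 0.08 per difference.

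Platform annotation named 1 gene for 23978 probes and none for 1719, and names were updated by gene number for 23962 (GRCm38.p6). The array's own build is not given in the sources used here, so no probe position is printed. For genes other than claudins the brightest probe stands for the gene. SAM took all 70 arrangements, set the deposited intensities to at least 16 and used the lowest threshold whose median FDR was under 6% (1.04, FDR 5.995%). Upstream sequences were searched on both strands for the 3 motifs spelled out beside them. Both tests were first tested on simulated data.

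The claudins, the gene lists and the tests were chosen with earlier results of these data known. By rule, every claudin probe kept was named, with up to 4 genes past the threshold of each other list and the 3 probes most like each Cldn10 probe. Bsnd, the fifth limb gene past the threshold, Slc34a1, Kcnj1, Mep1b, Vdr, Ctnnb1, Pkp2, Upk3b, Pecam1, Tek, Kdr, Hba-a1 and the undetected markers were named after their values were seen. Alternatives were no background correction, median scaling, an offset of 50, the deposited intensities, no detection filter, detection on all arrays, the replicate number as a block, a lower SAM floor, SAM on the neqc values and leaving out each mouse.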

Additional observations from a re-analysis of the deposited data

Results flagged for a closer look

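In 5 of the 84 groups of 4 mice looked at, 1 mouse lay far from the other 3 by Dixon's ratio of its gap to the whole range, which chance gives in about 1 of 20 groups. For Cldn19 ILMN_2634169 the ratio was 0.923 in mutant mice, where mouse 1 read 6.10 and the others 5.64 to 5.68. For Cldn8 ILMN_2623145 it was 0.967 in mutant mice, with mouse 4 at 4.61 and the others at 4.37 to 4.38, all below the detection limit. Outside the listed claudins, it was 0.83 for Cldn18 in wild-type mice (mouse 1 at 5.67), 0.876 for Lrp2 in mutant mice (mouse 4 at 5.59) and 0.902 for Pvalb in wild-type mice (mouse 4 at 11.74).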

How the results depend on the processing

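The Cldn10 probe ILMN_2723576 was past the threshold in all 16 fits, with differences of -1.98 to -1.75 when 1 mouse was left out. Without background correction the spread of the Cldn10 probes was 1.23, Cldn3 gave 0.12 and lost its call, and 5 genes of the junction and regulator lists passed, as with an offset of 50. With median scaling Cldn3 gave 0.17 and lost its call, Cldn7 (-0.074), Cldn12 (-0.0016), Cldn19 ILMN_2634169 (-0.0018) and Cldn15 ILMN_2793817 (-0.086) changed sign, 1 other claudin probe passed, and Bsnd, Slc12a3, Pvalb, Scnn1b, Fxyd4 and Prkcz no longer passed. With the deposited intensities Cldn16 gave -0.39 and lost its call. Without the detection filter Cldn3 (0.26) and Cldn16 (-0.37) kept their values and lost their calls, which left 1 claudin probe. SAM with a floor of 1 reached no threshold and passed 0 claudin probes.

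The replicate numbers did not pair the mice (r of 0.13, -0.07, -0.10 and -0.02 between same-numbered mice). With the replicate number as a block 1361 probes passed, Cldn3 (0.26) lost its call, and 1 other claudin probe passed.

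With 1 mouse left out, 1148 to 1683 probes passed (1148 without wild-type mouse 1, 1305 without wild-type mouse 2, 1323 without mutant mouse 2 and 1437 without mutant mouse 4), among them 1 to 2 listed claudin probes, 0 to 1 other claudin probes and 0 to 3 genes of the junction and regulator lists. Differences then ran from -0.13 to -0.06 (ILMN_2515816), -0.25 to -0.12 (ILMN_1214954) and -0.24 to -0.10 (ILMN_2610656) for the other Cldn10 probes, 0.22 to 0.31 for Cldn3, -0.46 to -0.31 for Cldn16, -0.073 to 0.13 for Cldn7, -0.0085 to 0.10 for Cldn12, -0.15 to 0.018 and -0.044 to 0.11 for the Cldn19 probes, -0.034 to 0.076 for Cldn15 ILMN_2793817 and -0.022 to 0.29 for Cldn18. Where these settings leave out mice or add probes, fewer samples or more tests are part of the setting, and for the others the cause was not tested.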
